A study of Mus musculus with 17 samples.

Results

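The Rab GTPases are the small membrane-bound switches that give endosomes, Golgi and secretory vesicles their identity, and the 59 mouse genes described here are every symbol of the deposited expression table with a name made of Rab, a number and at most a letter and a further digit. They are 59 of 41709 symbols, and they were matched by name, with no expression value in the rule. RNA was sequenced from 17 whole mouse embryos of strain C57BL/6J, 1 embryo to a library. At E9.5 there were 4 Disp1_CS_INDEL embryos, which carry a CS allele over an INDEL allele of Disp1, and 4 wild-type controls, Disp1_WT, all from litters of Disp1 CS/+ females and Disp1 INDEL/+ males. At E8.5 there were 5 Myo10_m1J embryos with the m1J allele on both copies of Myo10, and 4 Myo10_WT controls (Myo10 +/+), from intercrosses of m1J heterozygotes. Litter membership of single embryos is not in the labels. The study, by its title, concerns endocytic recycling and cytonemes, thin signalling protrusions of cells, and each genotype comparison asks what differs in embryos with altered Disp1, which encodes the exporter of Hedgehog ligand, or Myo10, which encodes a filopodial motor.

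A Rab protein is carried to its membrane in the GDP-bound form, is switched on there by a guanine nucleotide exchange factor (GEF), recruits effectors such as tethers and motors, and is switched off by a GTPase-activating protein (GAP). Rab5 proteins act at early endosomes, Rab4 and Rab35 in rapid return to the surface, Rab11 proteins in slow return through the recycling endosome, Rab7 on the way to lysosomes, and Rab1, Rab2 and Rab6 between endoplasmic reticulum (ER) and Golgi. Rab23 is known in mice as a negative regulator of Hedgehog signalling, and Rab34 takes part in forming primary cilia, the organelle in which vertebrate Hedgehog signals are read. The 59 genes were placed in 7 groups by known site of action, with 7 early endosomal, 9 recycling, 8 late endosomal or lysosomal, 15 ER and Golgi, 12 secretory, 3 ciliary or Hedgehog-related and 5 other genes.

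Upstream sequences are shown for 4 genes that the stage comparison turns on. Rab11a and Rab11b are a pair whose balance differed between the stages without overlap, and Rab17 and Rab20 are the members that were lower at E9.5 under every scaling. Each is the 250 bases before the RefSeq start site on assembly GRCm38.p6, all on the minus strand, at chr9:64737757-64738006 for Rab11a, chr17:33760487-33760736 for Rab11b, chr1:90967668-90967917 for Rab17 and chr8:11478641-11478890 for Rab20. Capitals mark matches on either strand to 7 motifs. These are the CCAAT box with the letters CCAAT, the GC box with GGGCGG, an E-box with CACGTG, the cyclic AMP response element with TGACGTCA, an ETS motif with CCGGAAGT, the TATA box with TATAAA, and the Gli motif of Hedgehog response with GACCACCCA. No motif is contained in another.
Rab11a: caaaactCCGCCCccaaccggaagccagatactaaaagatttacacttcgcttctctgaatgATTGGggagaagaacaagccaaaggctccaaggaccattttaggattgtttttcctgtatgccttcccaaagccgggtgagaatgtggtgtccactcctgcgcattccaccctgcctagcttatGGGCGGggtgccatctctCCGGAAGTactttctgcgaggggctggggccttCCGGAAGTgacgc
Rab11b: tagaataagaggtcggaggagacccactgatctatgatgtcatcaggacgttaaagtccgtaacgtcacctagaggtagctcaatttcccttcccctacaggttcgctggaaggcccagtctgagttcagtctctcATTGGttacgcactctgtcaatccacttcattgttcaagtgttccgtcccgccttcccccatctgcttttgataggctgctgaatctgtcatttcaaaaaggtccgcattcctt
Rab17: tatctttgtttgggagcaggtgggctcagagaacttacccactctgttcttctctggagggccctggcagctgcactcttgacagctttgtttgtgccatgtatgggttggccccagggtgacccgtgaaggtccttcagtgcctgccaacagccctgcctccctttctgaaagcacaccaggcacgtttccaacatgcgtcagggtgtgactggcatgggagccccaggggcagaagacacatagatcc
Rab20: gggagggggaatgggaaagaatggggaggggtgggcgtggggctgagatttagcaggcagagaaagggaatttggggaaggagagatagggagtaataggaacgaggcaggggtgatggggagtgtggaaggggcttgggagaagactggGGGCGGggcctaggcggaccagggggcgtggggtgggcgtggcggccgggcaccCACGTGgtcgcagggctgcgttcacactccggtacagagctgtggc
The Rab11a window held 1 CCAAT box, 2 GC boxes and 2 ETS matches, against 1 CCAAT box alone in the Rab11b window. The Rab17 window held none of the 7 motifs and 3 CpG dinucleotides, while the Rab20 window held 1 GC box, 1 E-box and 12 CpG dinucleotides. RefSeq windows were at hand for 48 of the 59 genes (60 windows). A GC box lay in 66.7% of the Rab windows and in 32.7% of all 32851 windows of that length, and a CCAAT box in 40.0% and 33.8%. The Gli motif lay in 1 Rab window, that of Rab31, and in 0.225% of all windows. A match describes the letters and is not a binding site.

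Rab transcripts ranged from a mean of 176 TPM for Rab1b to 0.0112 TPM for Rab44 over the 17 embryos. Values are TPM, which are scaled per transcript length and to a fixed total per library, so levels can be set between genes. Over the 17 libraries 12 members averaged at least 50 TPM, 17 between 10 and 50 TPM, 20 between 1 and 10 TPM, and 10 under 1 TPM. The 6 most abundant members, Rab1b, Rab7, Rab5c, Rab2a, Rab1a and Rab10, held 47.6% of the mean Rab TPM. At least 1 TPM was reached in every library by 42 members, and in no library by 5, namely Rab7b, Rab9b, Rab26, Rab3c and Rab44.

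**Figure D1:**
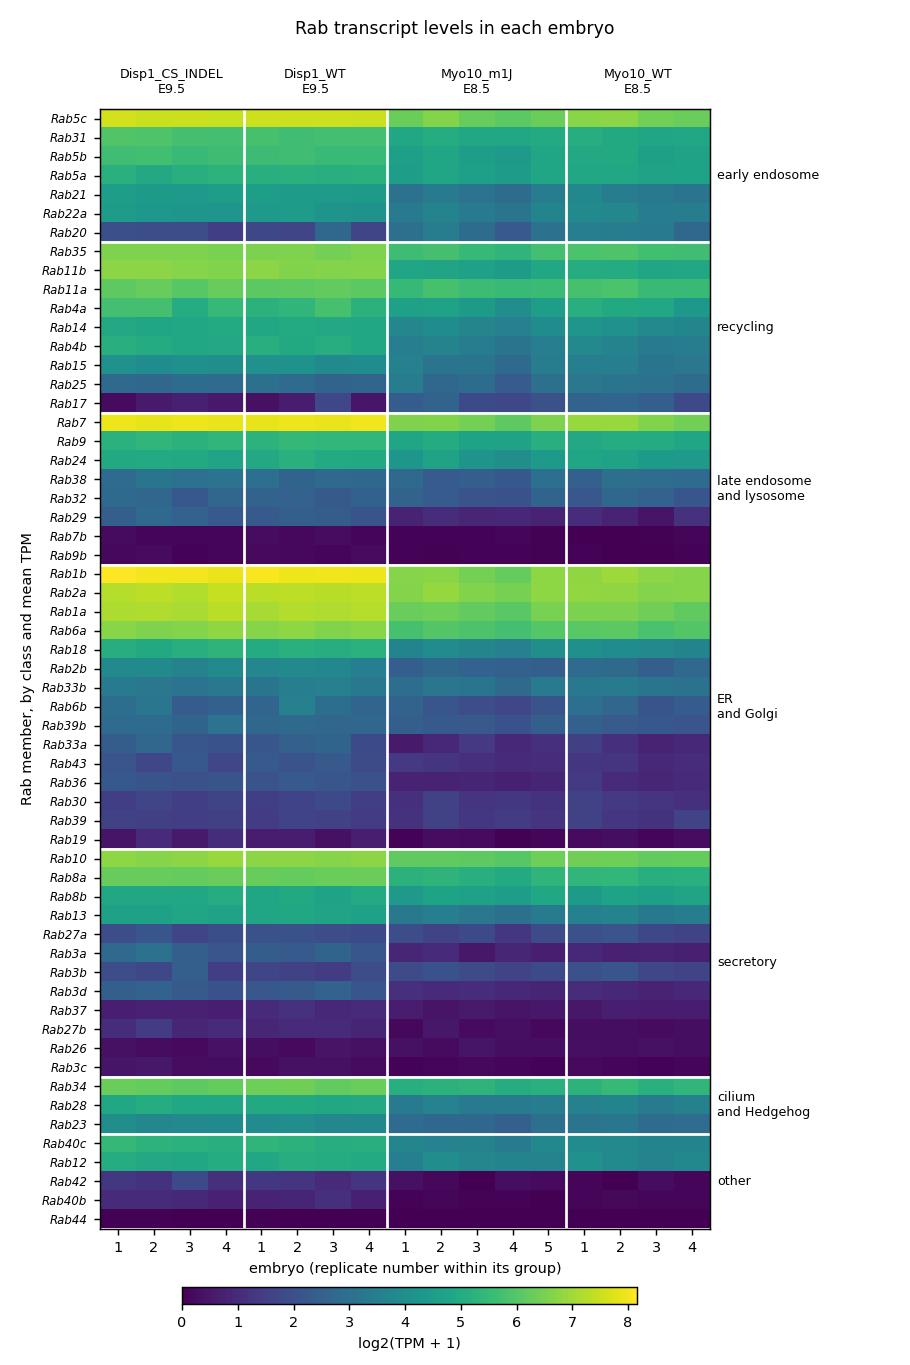
Level of each of the 59 Rab members in each of the 17 embryos, as log2(TPM + 1) in colour. Rows are grouped by class and ordered by mean TPM, and columns are single embryos grouped by genotype and stage. Rab1b, Rab7, Rab5c and Rab2a have the highest means, E9.5 columns are higher in most rows, and Rab17 and Rab20 are lower at E9.5.

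The make-up of the libraries differed sharply between the stages, which touches every stage value below. Structural RNAs (mostly 7SL, 7SK, Rmrp and Rpph1) took 0.209 to 0.334% of TPM at E9.5 and 29.9 to 44.6% at E8.5, and histone transcripts took 0.673 to 0.791% at E9.5 and 7.30 to 9.08% at E8.5. TPM keeps no read depth, so depth per library is unknown, and library make-up, stage, experiment and cross cannot be told apart. Among single embryos, Disp1_WT replicate 3 had a summed TPM of 755 for 8 yolk sac markers and 744 for 6 decidua and trophoblast markers, against 39.8 to 68.0 and 8.36 to 31.6 in the other Disp1_WT embryos. Its tail and presomitic mesoderm markers summed to 5.20 TPM and those of Disp1_CS_INDEL replicate 1 to 7.41 TPM, against 89.3 to 147 TPM in the other E9.5 embryos. At E8.5, Myo10_m1J replicate 2 had 219 TPM of decidua and trophoblast markers, against 1.21 to 28.9 TPM in the other Myo10_m1J embryos. Myo10_WT replicate 1 had 60.9 TPM of tail and presomitic mesoderm markers, against 229 to 305 TPM in the other Myo10_WT embryos. Sums of 6 primitive erythroid markers ran from 75.0 to 4598 TPM in Myo10_m1J and from 275 to 1628.7 TPM in Myo10_WT embryos. Germ layer markers (Sox2, Pax6, Meox1, Gata4, Foxa2, Sox17, Twist1 and Myl7) were detected in every group, as whole embryos should show. In whole embryos, fewer cells of a type and less RNA per cell cannot be told apart.

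Transcripts of the mutated genes were read before the Rab genes. Myo10 stood at 4.35, 4.31, 3.59, 2.16 and 3.64 TPM in the Myo10_m1J embryos and at 33.9, 26.6, 23.0 and 19.9 TPM in the Myo10_WT embryos, a log2 change of -2.54 (SE 0.182, limma adjusted p = 6.68e-05). Disp1 stood at 16.3, 14.8, 14.5 and 11.6 TPM in the Disp1_CS_INDEL embryos and at 18.4, 19.3, 17.2 and 15.3 TPM in the Disp1_WT embryos. Those groups overlapped, and the log2 change of -0.28 (SE 0.107) did not pass (limma adjusted p = 1.00). The alleles of Disp1 need not lower its transcript, so its level does not check the labels.

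No Rab gene of any class passed the test between Disp1_CS_INDEL and Disp1_WT embryos. Of 59 members 49 had at least 1 TPM in at least 4 of the 8 libraries and were tested, and 0 were called by limma at an adjusted p under 0.05, where the background over all genes was 0.0301% (4 of 13294). At an unadjusted p under 0.05 there was 1 member, Rab38. The share of all genes at that threshold is not given, so this count is not read further. The members' median log2 difference was 0.01, against 0.01 over all genes, with 27 positive and 22 negative values. In 0 of the 49 tested members were the groups free of overlap, against 0.895% of all genes tested higher and 0.654% lower. After median-of-ratios scaling, which sets the middle gene of each library level, 0 members were called too (background 0.0602%), and leaving out Disp1_WT replicate 3 and Disp1_CS_INDEL replicate 1 together also gave 0 calls.

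Among the recycling genes, which the series title makes the closest to its question, differences were small. Rab11a, which serves the perinuclear recycling endosome in most cells, stood at 70.0, 75.6, 64.2 and 75.8 TPM in Disp1_CS_INDEL embryos and at 67.2, 68.8, 72.0 and 67.9 TPM in Disp1_WT embryos. Its paralogue Rab11b stood at 106, 106, 101 and 96.7 TPM in Disp1_CS_INDEL embryos and at 106, 96.2, 99.3 and 100.1 TPM in Disp1_WT embryos. In both genes the groups overlapped almost completely. The log2 difference was 0.05 for Rab11a (95% interval -0.09 to 0.18) and 0.03 for Rab11b (-0.08 to 0.14). For Rab35, a regulator of rapid recycling, the difference was 0.04 (-0.06 to 0.13), and for Rab14, which links the Golgi and endosomes, -0.02 (-0.15 to 0.11). Rab4a, a rapid-recycling Rab, was the most scattered of the group at 52.3, 52.8, 32.3 and 43.7 TPM in Disp1_CS_INDEL embryos and 37.0, 40.7, 54.0 and 36.7 TPM in Disp1_WT embryos, and its interval was correspondingly wide (-0.27 to 0.46 around 0.09). Rab4b differed by -0.04 (-0.22 to 0.14) and Rab25, the epithelial member of the Rab11 family, by 0.02 (-0.20 to 0.25). The intervals are not adjusted for the number of genes.

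Among the endocytic and degradative genes, none passed the test either. Rab5c, the most abundant early endosomal Rab here, stood at 194, 180, 182 and 177 TPM in Disp1_CS_INDEL embryos and at 185, 184, 187 and 182 TPM in Disp1_WT embryos, a log2 difference of -0.01 (-0.10 to 0.08). Rab5a differed by -0.02 (-0.19 to 0.14) and Rab5b by 0.04 (-0.09 to 0.16). Rab7, the late endosomal switch, differed by -0.02 (-0.11 to 0.07). Rab38, which serves lysosome-related organelles such as melanosomes, had the smallest p of all members. It stood at 6.22, 8.01, 7.51 and 7.65 TPM in Disp1_CS_INDEL embryos and at 6.93, 5.22, 5.87 and 5.77 TPM in Disp1_WT embryos, with 1 Disp1_WT embryo inside the mutant range. Its log2 difference of 0.27 (SE 0.102, unadjusted p = 0.0259) did not pass (limma adjusted p = 1.00). The other members with the smallest p were Rab34 at -0.09 (SE 0.0546), Rab31, a Rab5-related gene, at 0.10 (SE 0.0632), Rab29, a Rab of the Golgi and lysosomes, at 0.20 (SE 0.125) and Rab24, which is tied to autophagy, at -0.10 (SE 0.0744), each with an adjusted p of 1.00.

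Secretory and Hedgehog-related members that were tested also overlapped between the genotypes. Rab37, a secretory member that fell under the filter and was not tested, did not overlap. It stood at 0.613 to 0.695 TPM in Disp1_CS_INDEL and 0.874 to 1.23 TPM in Disp1_WT embryos. Rab10 and Rab8a, which carry vesicles to the plasma membrane and, for Rab8a, into cilia, differed by 0.04 (-0.08 to 0.16) and -0.02 (-0.12 to 0.08). Rab27a, a regulator of lysosome-related secretion and exosome release in cultured cells, differed by 0.00 (-0.25 to 0.25). Rab3a, a synaptic vesicle Rab, stood at 5.88, 7.43, 4.48 and 3.47 TPM in Disp1_CS_INDEL embryos and 4.29, 4.00, 5.13 and 3.59 TPM in Disp1_WT embryos, with an interval of -0.17 to 0.64. Rab23 stood at 15.4, 12.8, 13.3 and 13.8 TPM in Disp1_CS_INDEL embryos and 14.3, 15.04, 12.7 and 12.9 TPM in Disp1_WT embryos, a difference of 0.01 (-0.17 to 0.19). Rab34 stood at 77.0, 74.2, 69.6 and 73.9 TPM in Disp1_CS_INDEL embryos and 81.4, 82.3, 72.6 and 78.3 TPM in Disp1_WT embryos. Its interval reached from -0.21 to 0.03. Rab23 and Rab29 lie on the chromosome of Disp1, but 605 and 265 tested genes away in RefSeq order.

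Between Myo10_m1J and Myo10_WT embryos no Rab gene passed either. Of 59 members 45 were tested and 0 were called by limma, against a background of 0.00796% (1 of 12560), and 0 had an unadjusted p under 0.05. As many as 44 of 45 values were negative in TPM, with a median of -0.14, and the median over all genes was -0.16. After median-of-ratios scaling 27 values were positive and 18 negative with a median of 0.04, against 0.02 over all genes, and again 0 were called (background 0.00797%). There 3 members had an unadjusted p under 0.05, Rab31, Rab8a and Rab2a. That count too has no share of all genes beside it and is not read further. In 0 of the 45 tested members were the groups free of overlap, against 0.0318% of all genes tested higher and 0.963% lower. Rab36, which fell under the filter here, was free of overlap. It stood at 0.66 to 0.802 TPM in Myo10_m1J and 0.833 to 1.59 TPM in Myo10_WT embryos.

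Rab6b, the neuronal form of the Golgi Rab6, had the smallest p. It stood at 5.02, 3.58, 2.78, 2.34 and 3.39 TPM in Myo10_m1J embryos and at 6.84, 5.51, 3.33 and 4.22 TPM in Myo10_WT embryos. The groups overlapped, and the log2 difference was -0.43 (SE 0.201, unadjusted p = 0.0537, limma adjusted p = 0.473) in TPM and -0.27 after scaling. Rab23 followed with 6.20, 5.61, 5.82, 4.72 and 7.04 TPM in Myo10_m1J embryos and 7.84, 8.26, 6.42 and 6.60 TPM in Myo10_WT embryos, -0.27 in TPM (SE 0.130) and -0.10 after scaling. Rab4a differed by -0.36 (SE 0.177) in TPM and -0.17 after scaling, and Rab1b, the main ER-to-Golgi Rab, by -0.22 (SE 0.118) and -0.02. Each of these had an adjusted p of 0.473 in TPM.

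In the recycling pair the differences were nearer 0 or of the other sign after scaling. Rab11b stood at 27.7, 26.4, 24.5, 22.1 and 28.7 TPM in Myo10_m1J embryos and at 32.2, 31.5, 26.7 and 28.4 TPM in Myo10_WT embryos, a difference of -0.20 (-0.42 to 0.03) in TPM and 0.00 (-0.12 to 0.11) after scaling. Rab11a stood at 43.2, 54.4, 47.4, 43.8 and 46.3 TPM in Myo10_m1J embryos and at 54.8, 56.8, 44.8 and 45.5 TPM in Myo10_WT embryos, a difference of -0.10 (-0.33 to 0.13) in TPM and 0.10 (-0.05 to 0.25) after scaling. For Rab35 the values were -0.19 in TPM and 0.00 after scaling, and for Rab7 -0.24 and -0.04. Structural RNA was 32.3 to 44.6% in Myo10_m1J and 29.9 to 37.0% in Myo10_WT libraries, and its part in the TPM differences was not tested.

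**Figure D2:**
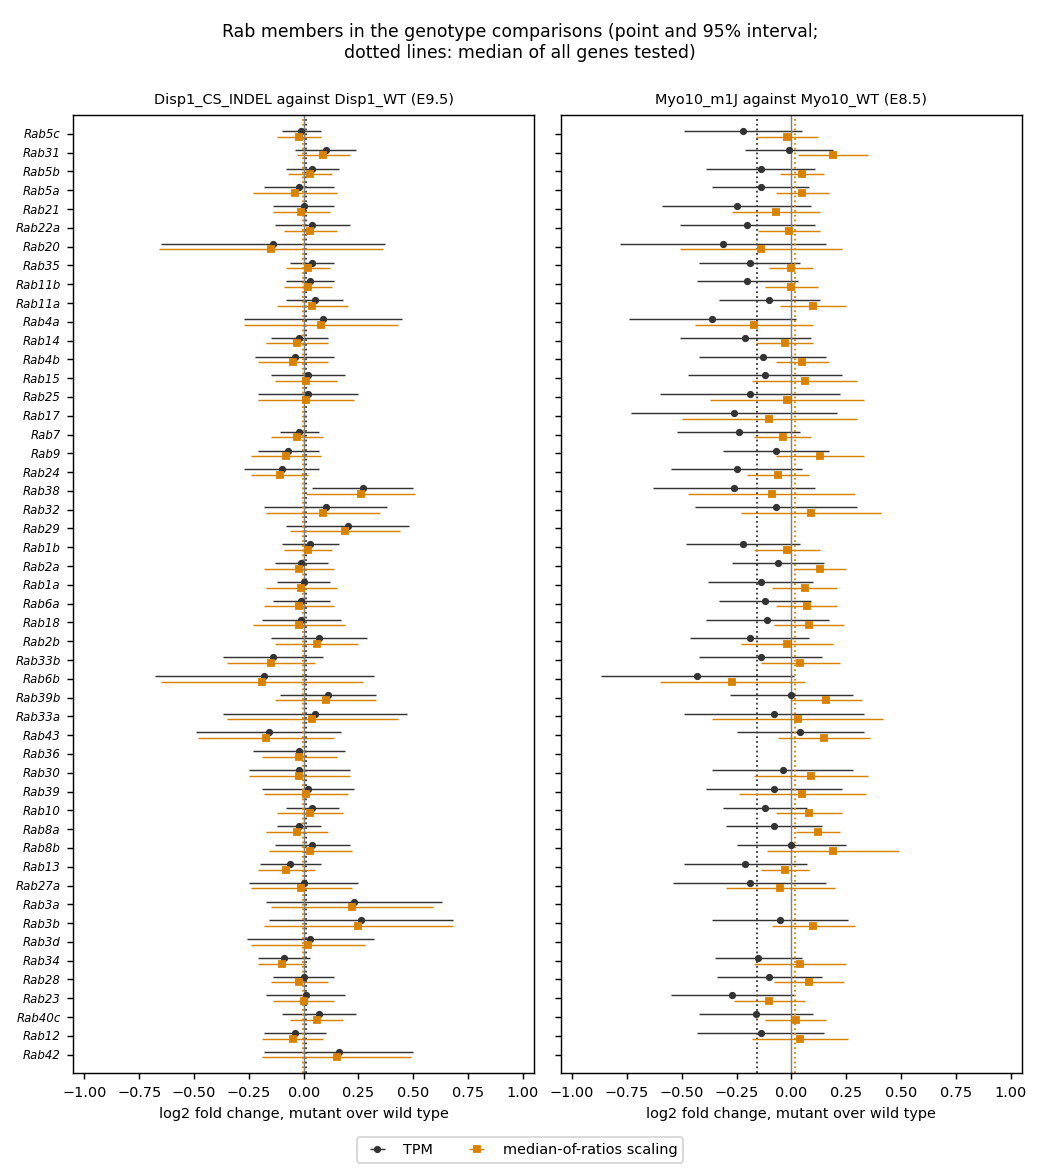
Log2 fold change of each tested Rab member, mutant over wild type, at E9.5 (left) and E8.5 (right), with its unadjusted 95% interval, in TPM (circles) and after median-of-ratios scaling (squares). Dotted lines mark the median of all genes tested; at E8.5 the TPM points sit to the left around a median of -0.16 and the scaled points around 0.02, and 0 members passed in any panel or scaling.

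Whether the Disp1 and Myo10 effects differ from each other was tested as an interaction over the 17 libraries. Of 50 members 0 were called by limma (background 0.0216%), and likewise 0 after median-of-ratios scaling (0.0218%). At an unadjusted p under 0.05 there was 1 member in TPM and 0 after scaling, counts that again lack the share of all genes. The 5 smallest p-values belonged to Rab38, Rab35, Rab11b, Rab23 and Rab1b. Rab38 differed most, with a Disp1 effect minus Myo10 effect of 0.52 (SE 0.210, unadjusted p = 0.0234, limma adjusted p = 0.586) in TPM and 0.35 after median-of-ratios scaling. Rab11b gave 0.23 (SE 0.112) in TPM and 0.04 after scaling, and Rab35 0.23 (SE 0.114) and 0.04. Rab23 gave 0.28 (SE 0.151) and 0.11, and Rab1b 0.25 (SE 0.141) and 0.06.

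Between the stages most Rab genes tested were called in TPM, at a share near that of all genes, and the counts depended on the scaling. Summed over the 59 genes, Rab transcripts came to 2281 ± 55.3 TPM in Disp1_CS_INDEL and 2271 ± 21.9 TPM in Disp1_WT embryos at E9.5, against 1109 ± 116 TPM in Myo10_m1J and 1237 ± 122 TPM in Myo10_WT embryos at E8.5 (SD, n = 4, 4, 5 and 4). After median-of-ratios scaling the same sums were 1701, 1700, 1516 and 1486. In TPM, 39 of 50 members were higher and 2 lower in Disp1_WT at E9.5 than in Myo10_WT at E8.5, where 69.4% of all genes were called higher and 10.2% lower. After scaling, 23 of 49 were higher and 15 lower, against 36.4% and 36.2% of all genes. The embryos with mutations, which share no library with the wild types but differ in genotype too, gave 42 higher and 2 lower of 50 in TPM (background 77.5% and 8.28%), and 22 and 15 of 49 after scaling (35.7% and 37.2%). Without Disp1_WT replicate 3 the wild-type counts were 37 and 2 in TPM and 23 and 13 after scaling. The members' median log2 difference between the wild types was 0.78 in TPM and 0.10 after scaling, against 0.62 and 0.01 over all genes. In 38 members the wild-type groups did not overlap with E9.5 higher, and in 2 with E9.5 lower, against 66.1% and 7.96% of all genes. Between the embryos with mutations the counts were 39 and 2, against 72.5% and 6.26%.

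**Figure D3:**
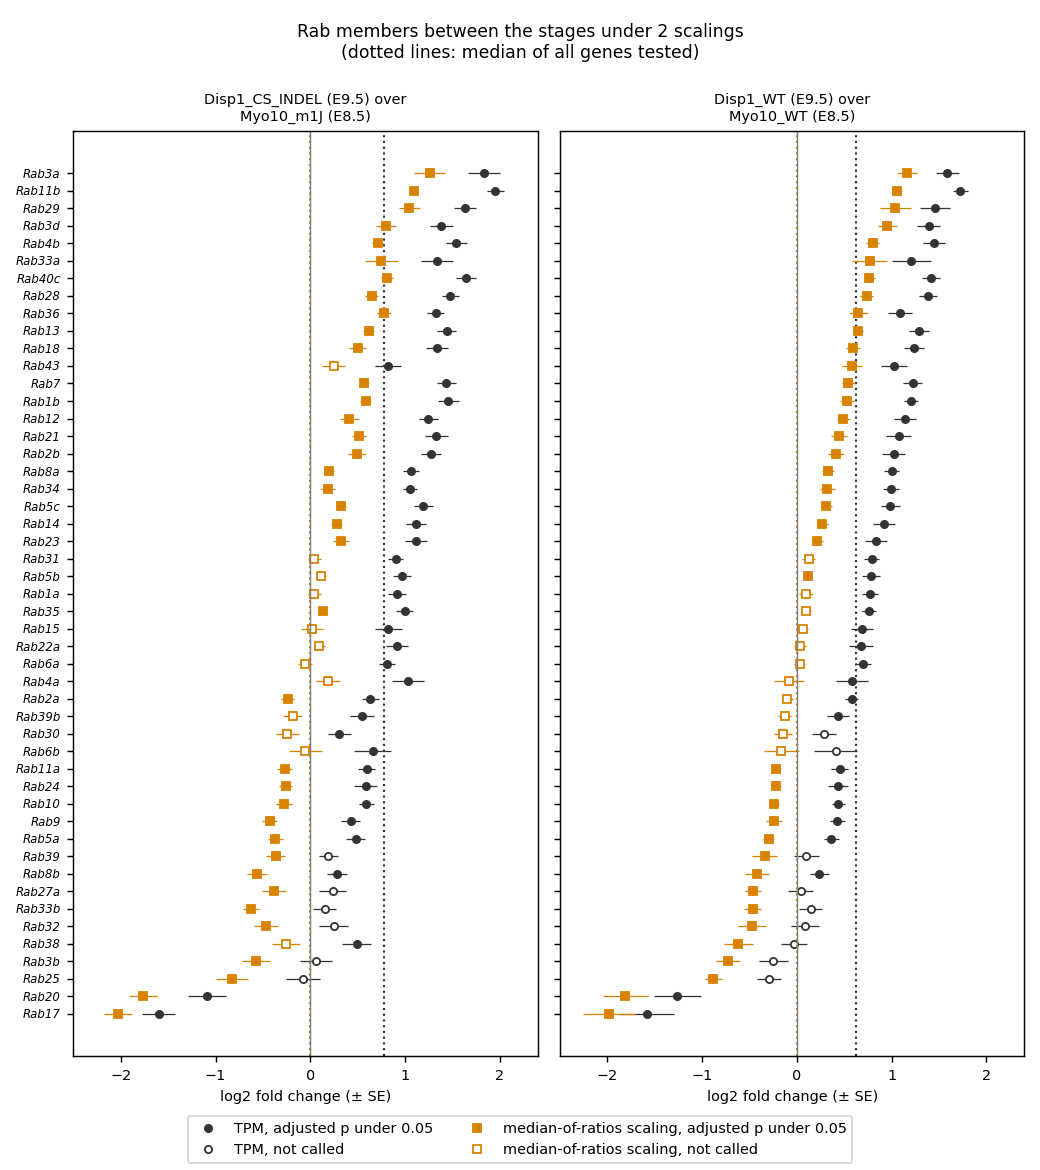
Log2 fold change (± SE) of each tested Rab member at E9.5 over E8.5, in embryos with mutations (left) and wild types (right), in TPM (circles) and after median-of-ratios scaling (squares), ordered by the scaled wild-type value. Filled symbols passed the limma test and open ones did not. Dotted lines mark the median of all genes, which is 0.78 and 0.62 in TPM and near 0 after scaling. Rab11b, Rab3a and Rab29 lie far right and Rab17 and Rab20 far left under either scaling.

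The share of a class in all Rab TPM is free of library scaling, and it overlapped between the stages in some classes and not in others. Recycling Rabs made up a mean of 17.3 ± 0.499% of Rab TPM in Disp1_CS_INDEL (SD, n = 4) and 16.7 to 17.6% in Disp1_WT embryos, against 16.0 to 17.2% in Myo10_m1J and 16.3 to 17.5% in Myo10_WT embryos. ER and Golgi Rabs held 32.6 to 33.5% in Disp1_CS_INDEL and 32.8 to 33.1% in Disp1_WT embryos, against 33.2 to 34.5% in Myo10_m1J and 32.5 to 33.5% in Myo10_WT embryos. For both classes the stages overlapped, as they did for early endosomal Rabs, with means of 16.0% in Disp1_CS_INDEL, 15.9% in Disp1_WT, 16.5% in Myo10_m1J and 16.7% in Myo10_WT embryos. Secretory Rabs held 10.9 to 11.6% in Disp1_CS_INDEL and 11.1 to 11.3% in Disp1_WT embryos, below the 12.6 to 14.1% of Myo10_m1J and the 12.4 to 13.7% of Myo10_WT embryos. Rab10 alone held a mean of 105 of 253 TPM of this class in Disp1_WT and 77.7 of 158 TPM in Myo10_WT embryos. Of its less abundant members, Rab3a, Rab3d and Rab13 were higher at E9.5 in all 8 fits described below. The group of other Rabs, mostly Rab40c, the substrate-binding part of a ubiquitin ligase, and Rab12, held 2.97 to 3.26% in Disp1_CS_INDEL and 2.96 to 3.15% in Disp1_WT embryos, against 2.06 to 2.28% in Myo10_m1J and 2.03 to 2.33% in Myo10_WT embryos. In both of these classes the stages did not overlap. In the wild-type comparison 7 of 9 recycling members tested were higher and 1 lower in TPM, and 3 and 3 after scaling. Of 6 late endosomal members 4 were higher in TPM, and 2 were higher and 4 lower after scaling. Of all genes, 69.4% were called higher and 10.2% lower in TPM, and 36.4% and 36.2% after scaling. The counts of these small classes are not read as particular to them. All 3 ciliary members, Rab34, Rab23 and Rab28, a Rab of photoreceptor and other cilia, were called higher in TPM and after median-of-ratios scaling, where 69.4% and 36.4% of all genes were, at 0.99, 0.83 and 1.38 in TPM and 0.32, 0.22 and 0.74 after scaling. With protein-coding genes only, Rab28 alone was called, and the values of the 3 lay between 0.04 and 0.56.

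To see which members keep a direction, both stage comparisons were taken under 4 scalings (TPM, median-of-ratios, without structural, haemoglobin and mitochondrial RNA, and protein-coding genes only), which makes 8 fits. Of 49 members tested in all of them, 14 were called higher in every fit and 2 lower in every fit. Over all 12210 genes tested in all 8 fits the shares were 24.8% and 6.04%, so the members' counts, 28.6% and 4.08%, are near the background. The 14 were Rab29 and Rab7 of late endosomes and lysosomes, Rab4b and Rab11b of recycling, Rab1b, Rab18, Rab33a and Rab36 of the ER and Golgi, Rab3a, Rab3d and Rab13 of secretion, Rab28 of cilia, and Rab12 and Rab40c. The 2 lower ones were Rab17 and Rab20. A further 12 members were called in both directions, depending on the scaling, which is 24.5% of members against 28.2% of all genes. Among them were Rab11a, Rab5a, Rab10, Rab9 and Rab2a. For these 12 no direction is given.

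Rab11b was the clearest of the 14. At E9.5 it stood at 106, 106, 101 and 96.7 TPM in Disp1_CS_INDEL and 106, 96.2, 99.3 and 100.1 TPM in Disp1_WT embryos, against 22.1 to 28.7 TPM in Myo10_m1J and 26.7 to 32.2 TPM in Myo10_WT embryos. The wild-type log2 difference was 1.72 (SE 0.0776, limma adjusted p = 1.31e-08) in TPM and 1.06 (SE 0.0576) after median-of-ratios scaling, and over the 8 fits it lay between 0.87 and 1.95. Without Disp1_WT replicate 3 it was 1.73 in TPM. Rab11a, in contrast, lay between -0.42 and 0.59. The share of Rab11b in the Rab11a and Rab11b total is free of library scaling. It was 60.2, 58.4, 61.1 and 56.1% in Disp1_CS_INDEL and 61.1, 58.3, 58.0 and 59.6% in Disp1_WT embryos, against 35.5 ± 2.91% in Myo10_m1J (SD, n = 5) and 37.1, 35.7, 37.4 and 38.4% in Myo10_WT embryos. Rab11b was thus the larger part of the pair in each of the 8 E9.5 embryos and the smaller part in each of the 9 E8.5 embryos, while genotypes of a stage overlapped.

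Shares in other paralogue sets differed between the stages too. Rab4b, of the rapid-recycling pair, made up 40.9 ± 3.81% in Disp1_CS_INDEL and 43.2 ± 4.18% in Disp1_WT embryos, against 31.9 ± 1.85% in Myo10_m1J and 28.7 ± 3.82% in Myo10_WT embryos (SD, n = 4, 4, 5 and 4). At the early endosome, Rab5c held 67.2 to 70.0% of the Rab5 total over the E9.5 embryos and 59.2 to 64.5% over the E8.5 embryos, and Rab5a 11.4 to 14.5% at E9.5 and 17.4 to 20.2% at E8.5. Rab5b ranged from 17.1 to 19.6% at E9.5 and from 17.8 to 20.6% at E8.5, with overlap. For Rab8, Rab8b held 24.6 to 29.4% at E9.5 and 33.7 to 42.1% at E8.5. For Rab1, Rab1b held 60.6 to 66.7% at E9.5 and 53.0 to 58.4% at E8.5. Rab33a, which with Rab33b acts at the Golgi and in autophagy, held 22.3 to 39.5% at E9.5 and 7.10 to 17.9% at E8.5, and Rab3a held 34.7 to 50.3% of Rab3a, Rab3b and Rab3d at E9.5 and 10.2 to 21.7% at E8.5. Rab6b in its pair with Rab6a overlapped between the stages, at 4.09 to 8.98% at E9.5 and 4.36 to 9.41% at E8.5.

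**Figure D4:**
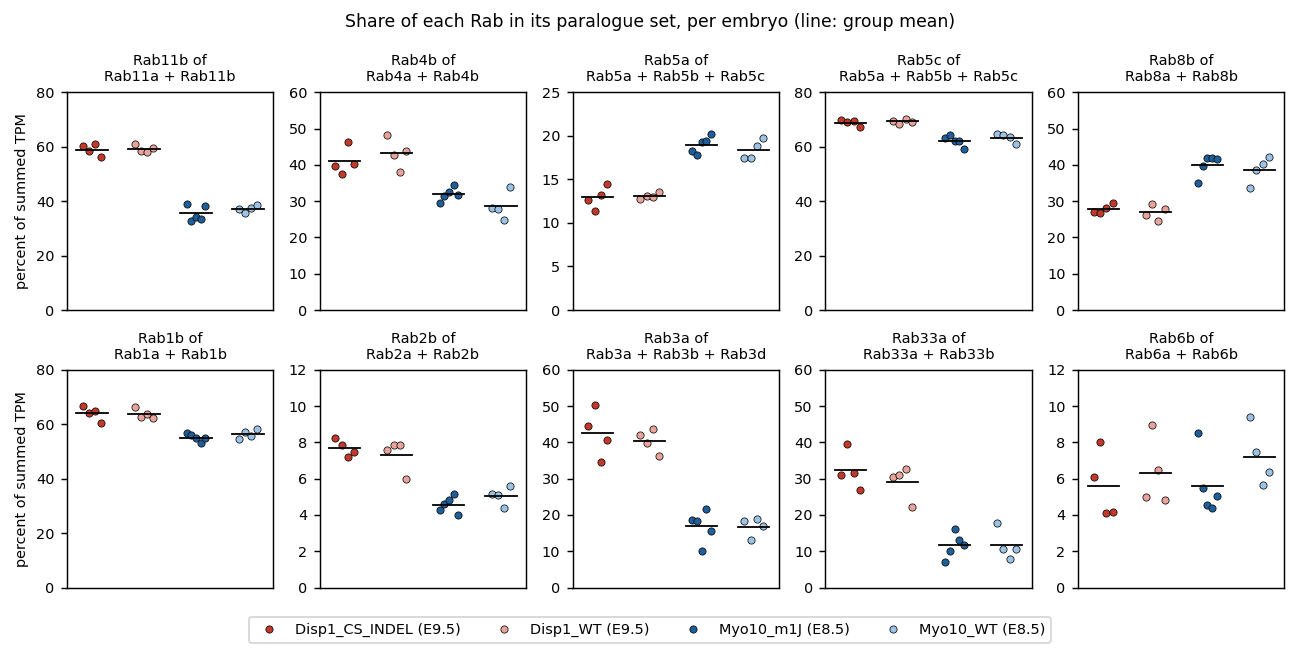
Share of 1 Rab in the summed TPM of its paralogue set, in percent, for each embryo (points) with group means (lines); each panel starts at 0 and has its own upper limit. The E9.5 groups stand apart from the E8.5 groups in the panels of Rab11b, Rab4b, Rab5a, Rab5c, Rab8b, Rab1b, Rab2b, Rab3a and Rab33a, and overlap for Rab6b, while genotypes of a stage overlap in all panels.

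Base composition differed within most of these paralogue sets. The longest protein-coding transcript of Rab11b has a GC content of 48.1% and that of Rab11a 39.5%, and the same order holds for Rab1b (58.9%) and Rab1a (42.0%), Rab5c (54.7%) and Rab5a (42.3%), Rab8a (49.4%) and Rab8b (40.6%), and Rab4b (59.2%) and Rab4a (53.7%), where the first of each pair has more GC and had a larger share at E9.5 than at E8.5. Rab6b (51.4%) has more GC than Rab6a (44.6%), and its share overlapped between the stages. The median GC content was 52.0% in the 14 members higher in all 8 fits, 55.9% in the 2 lower in all 8 and 44.4% in the 12 called both ways. Over the 50 tested members the wild-type log2 difference correlated with GC content with a Spearman rho of 0.255, against 0.388 over 12412 genes, as a description of these libraries, whose values share samples. The part of base composition in the stage values was not tested. Exons of Rab4b overlap the annotated gene Gm21983 on the same strand over 65.0% of their bases, and those of Rab43 overlap Gm45140 over 75.4%. On the opposite strand, exons of Rab24 overlap Prelid1 over 62.4% and those of Rab2b overlap Gm43766 over 59.3%. With a kit that keeps no strand and an unstated counting rule, the reads of these genes may be shared.

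Other members of the 14 had lower levels. Rab29 stood at 4.59, 5.95, 4.88 and 3.83 TPM in Disp1_CS_INDEL and 3.84, 4.60, 4.35 and 3.37 TPM in Disp1_WT embryos, against 0.720 to 1.10 TPM in Myo10_m1J and 0.369 to 1.26 TPM in Myo10_WT embryos, a wild-type log2 difference of 1.46 (SE 0.161) in TPM and 1.04 (SE 0.165) after scaling. Rab3a differed by 1.59 (SE 0.121) in TPM and 1.17 (SE 0.105) after scaling, and Rab3d, a Rab of regulated secretion, by 1.39 (SE 0.119) and 0.95 (SE 0.0992). Rab4b differed by 1.44 (SE 0.115) and 0.80 (SE 0.0717), and Rab40c by 1.42 (SE 0.0966) and 0.77 (SE 0.0581). Each of these passed the limma test under either scaling, with the largest adjusted p being 0.000348 for Rab29 after scaling. On the log2(TPM + 1) scale these folds understate the change of genes near 1 TPM.

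Rab3a is a gene of neurons, and neuronal markers differed as it did. The sum of 10 early neuron markers was 316 to 568 TPM in Disp1_CS_INDEL and 307 to 428 TPM in Disp1_WT embryos, against 54.4 to 69.9 TPM in Myo10_m1J and 51.6 to 76.3 TPM in Myo10_WT embryos. None of the 10 was at 0 in every embryo of a group. Rab3a was highest, at 7.43 TPM, in Disp1_CS_INDEL replicate 2, which also had the highest marker sum. That embryo also had the highest Rab29 (5.95 TPM), Rab33a (5.43 TPM) and Rab3d (4.93 TPM) values and the highest macrophage marker sum (9.88 TPM). Sums of macrophage, endothelial and primitive erythroid markers were likewise higher in every E9.5 embryo than in any E8.5 embryo. At E8.5 it stood between 0.430 and 0.945 TPM in Myo10_m1J and between 0.633 and 0.933 TPM in Myo10_WT embryos. The part of a changing share of neurons in the Rab3a difference was not tested.

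Rab17, which serves apical recycling in polarised epithelia, and Rab20, an endosomal and phagosomal Rab, were the members called lower at E9.5 in TPM. Rab17 stood at 0.171, 0.498, 0.648 and 0.481 TPM in Disp1_CS_INDEL and 0.299, 0.542, 2.31 and 0.401 TPM in Disp1_WT embryos, against 4.24, 5.12, 2.60, 2.38 and 3.09 TPM in Myo10_m1J and 5.01, 5.37, 4.54 and 2.50 TPM in Myo10_WT embryos. Rab20 stood at 2.94, 2.90, 2.87 and 1.84 TPM in Disp1_CS_INDEL and 2.38, 2.28, 5.73 and 2.29 TPM in Disp1_WT embryos, against 7.11, 9.80, 6.34, 3.84 and 7.50 TPM in Myo10_m1J and 10.2, 9.70, 9.11 and 5.76 TPM in Myo10_WT embryos. In both genes Disp1_WT replicate 3 was the highest E9.5 embryo by a wide margin. The wild-type log2 difference of Rab17 was -1.58 (SE 0.290, limma adjusted p = 0.000398) in TPM and -1.98 (SE 0.274) after scaling, and that of Rab20 -1.26 (SE 0.247, adjusted p = 0.000626) and -1.81 (SE 0.237). Without Disp1_WT replicate 3 the wild-type values in TPM were -1.89 for Rab17 and -1.52 for Rab20. Between the embryos with mutations the values were -1.60 (SE 0.179) and -2.03 (SE 0.149) for Rab17, and -1.09 (SE 0.199) and -1.77 (SE 0.151) for Rab20.

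Markers of the visceral yolk sac, an extra-embryonic epithelium, were like both genes lower in most E9.5 embryos than at E8.5. The 8 markers summed to 35.3 to 55.7 TPM in Disp1_CS_INDEL and 39.8 to 755 TPM in Disp1_WT embryos, against 583 to 1796.4 TPM in Myo10_m1J and 682 to 2112.4 TPM in Myo10_WT embryos. None of the 8 was at 0 in every embryo of a group. The 755 TPM belonged to Disp1_WT replicate 3, which also had 744 TPM of decidua and trophoblast markers. Myo10_m1J replicate 2 had the highest sums of both marker lists in its group, 1796 and 219 TPM, and the highest Rab17 and Rab20 values there. In Myo10_WT embryos, decidua and trophoblast markers summed to only 1.53 to 4.86 TPM. At E8.5 the lowest Rab17 and Rab20 values of each group were in the embryos with the lowest marker sums, Myo10_m1J replicate 4 and Myo10_WT replicate 4. These 2 embryos also had the lowest sums over all Rab members of their groups, at 937 and 1118 TPM. Within Disp1_CS_INDEL, Rab17 was lowest (0.171 TPM) in replicate 1, which had the highest marker sum, 55.7 TPM. It was highest there (0.648 TPM) in replicate 3, which had the lowest marker sum, 35.3 TPM. The part of attached or included yolk sac, decidua or trophoblast in the Rab17 and Rab20 values was not tested.

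**Figure D5:**
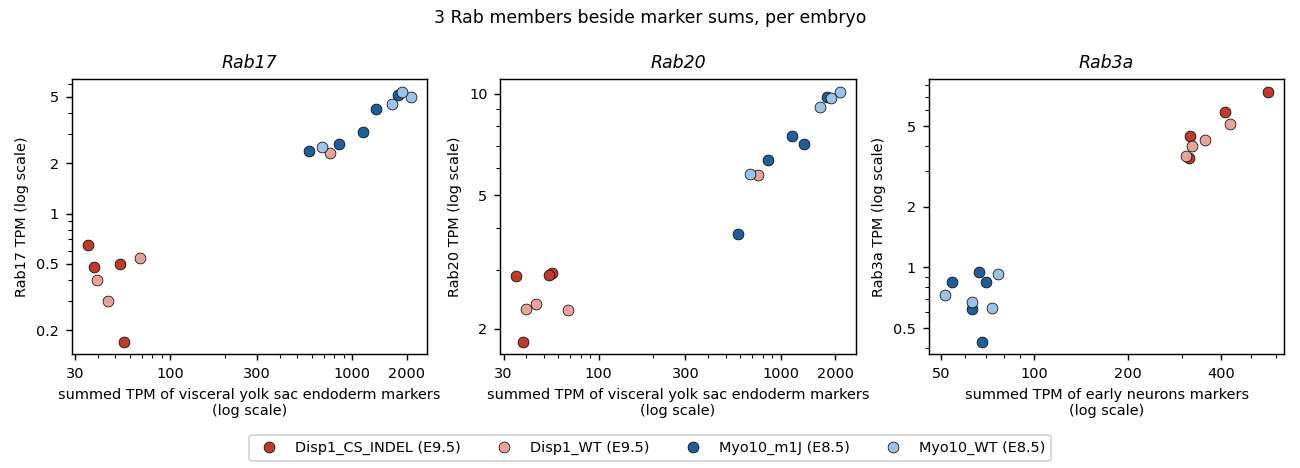
TPM of Rab17, Rab20 and Rab3a in each embryo (points) against the summed TPM of yolk sac or early neuron markers in the same embryo, all on log axes. Disp1_WT replicate 3 (pale red, a sum of 755 TPM) lies within the E8.5 range for Rab20 and, at 2.31 TPM, just under the lowest E8.5 value of 2.38 TPM for Rab17; for Rab3a the E9.5 embryos lie together at the upper right.

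Spread between embryos of a group was small for most members, but in some it differed between the stages. For Rab7 the SD was 2.84% of the mean TPM in Disp1_CS_INDEL and 2.87% in Disp1_WT embryos. It was 13.0% in Myo10_m1J and 15.8% in Myo10_WT embryos. For Rab4a the SD was 21.3%, 19.4%, 19.0% and 22.4% of the mean in the same order of groups. The pooled within-group SD of log2(TPM + 1) had a median of 0.153 over the 49 members with a mean of at least 1 TPM. It was largest for Rab17 (0.42), Rab20 (0.391), Rab6b (0.368), Rab33a (0.311) and Rab4a (0.303), and smallest for Rab31 (0.089), Rab10 (0.093) and Rab34 (0.094). Rab25 was the other epithelial member, at 5.86, 5.50, 6.45 and 6.22 TPM in Disp1_CS_INDEL and 7.01, 6.21, 5.07 and 5.39 TPM in Disp1_WT embryos, against 9.86, 5.58, 6.45, 4.06 and 7.15 TPM in Myo10_m1J and 8.41, 7.87, 7.19 and 6.38 TPM in Myo10_WT embryos. It was not called in TPM (-0.29, SE 0.129, limma adjusted p = 0.0552) and was lower at E9.5 after scaling (-0.88, SE 0.0900, adjusted p = 1.94e-05).

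The genes that run the Rab cycle were read from a list of 120, made of 7 prenylation and GDP-dissociation genes, 28 GEFs, 26 GAPs, 15 recycling effectors, 21 endosomal tethers and effectors, 14 secretory effectors and 9 exocyst genes. Between Disp1_CS_INDEL and Disp1_WT 0 of 110 tested genes were called, with a median log2 difference of 0.03, and between Myo10_m1J and Myo10_WT 0 of 105 were called, with a median of -0.18 in TPM and 0.00 after scaling. The 15 recycling effectors, among them the Rab11-family interacting proteins, had a median of 0.03 in the Disp1 comparison and of -0.22 in TPM and -0.03 after scaling in the Myo10 comparison. At an unadjusted p under 0.05 there were 0 cycle genes in the Disp1 comparison, and in the Myo10 comparison 5 in TPM and 3 after scaling. The share of all genes at that threshold is not given, so these counts are not read further.

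Between the wild types at E9.5 and E8.5, 73 of 109 cycle genes were higher and 12 lower in TPM, and 30 and 48 after scaling, against the shares of all genes given above. Between the embryos with mutations it was 83 and 7 of 108 in TPM and 32 and 46 of 109 after scaling. In all 8 fits 15 were higher, 7 lower, and 34 were called both ways. Of 108 cycle genes tested in all 8 fits the first count is 13.9%, below the 24.8% of all genes. The other 2 counts, 6.48% and 31.5%, are near the 6.04% and 28.2% of all genes. The largest rises between the wild types in TPM were those of Micall2, a partner of Rab13 at cell junctions (2.16, SE 0.153, and 1.64 after scaling), Sh3bp5, a GEF for Rab11 (1.79, SE 0.167, and 1.15), and Sgsm2, a GAP (1.60, SE 0.136, and 1.07). The largest falls were those of the early endosomal tether Eea1, an effector of Rab5 (-0.94, SE 0.199, and -1.53 after scaling), Dennd5b, a GEF (-0.94, SE 0.118, and -1.55), and Rab11fip1, an effector of Rab11 (-0.72, SE 0.132, and -1.35). Between the embryos with mutations the rises of Micall2 (2.25, SE 0.157), Sh3bp5 (2.10, SE 0.111) and Sgsm2 (1.87, SE 0.115) and the falls of Dennd5b (-0.76, SE 0.118), Eea1 (-0.55, SE 0.185) and Rab11fip1 (-0.42, SE 0.140) led. These 6 genes passed the limma test under all 4 scalings.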

How the data were processed

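Per the labels' protocols, single embryos were frozen while being genotyped, purified together, and made into TruSeq RNA v2 libraries, a kit that keeps no strand, for a NovaSeq instrument. The authors deposited TPM per gene symbol, with a total of 1000000 a library; TPM keeps no depth. Build GRCm39 stands in the submitters' processing notes, while the tools for alignment and counting were not given in the sources used here.

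From these values log2(TPM + 1) was tested with limma 3.58.1 (R 4.3.3, mean-variance trend) on all genes with at least 1 TPM in at least 4 libraries compared, with Benjamini-Hochberg adjustment at 0.05. Alternatives changed the pseudocount (0.1), the filter (none, or a mean of at least 5 TPM), the scaling, the trend, the libraries fitted together, the replicate block and the libraries left out. The fits were tested on simulated data. The family was proposed, and the lists were chosen, with earlier results of these data known; its members were then taken by symbol. By rule, genes were named for the 5 smallest p per genotype test, the 6 largest called wild-type stage changes each way, the 2 highest means per class, 17 known roles, and the 3 largest called changes each way of cycle genes; other members were named after their values were seen. Replicates are separate embryos, so p-values set group differences against the spread between embryos. Stage, experiment and cross coincide, so p-values of the stage comparisons do not cover spread between experiments. GC content and exon overlap came from GENCODE vM21, promoters from RefSeq (GRCm38.p6).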

Additional observations from a re-analysis of the deposited data

Results flagged for a closer look

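Of 124 groups of embryos of the 31 named members, 4 held an embryo far from the others, where chance gives about 1 in 20. Rab17 stood at 2.31 TPM in Disp1_WT replicate 3, against 0.299 to 0.542 TPM in the other Disp1_WT embryos. Rab20 stood at 5.73 TPM in the same embryo, against 2.28 to 2.38 TPM in the others. That embryo also had a yolk sac marker sum of 755 TPM, against 39.8 to 68.0 TPM in the others. Its decidua and trophoblast markers summed to 744 TPM, against 8.36 to 31.6 TPM in the others. The part of either tissue in these values was not tested. Rab20 stood at 1.83 TPM in Disp1_CS_INDEL replicate 4, against 2.87 to 2.94 TPM in the other Disp1_CS_INDEL embryos. Rab7 stood at 230.0 TPM in Disp1_CS_INDEL replicate 2, against 242 to 245 TPM in the others, a small difference from a tight group.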

How the results depend on the processing

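The genotype comparisons and their difference kept 0 Rab members called by limma under every alternative run, each left-out library included. At an unadjusted p under 0.05 they had 1, 0 and 1 members in TPM for Disp1, Myo10 and the difference, without the share of all genes. The stage counts hang on the scaling, and the cause was not tested. Between the wild types, median-of-ratios scaling gave 23 higher and 15 lower, protein-coding genes only gave 17 and 20, leaving out structural, haemoglobin and mitochondrial genes gave 11 lower, and median-of-ratios scaling without Disp1_WT replicate 3 gave 23 and 13. Between the embryos with mutations these were 22 and 15, 20 and 19, and 7 lower. A mean of at least 5 TPM left 1 lower in either comparison, as fewer genes were tested. Cycle genes after median-of-ratios scaling were 30 higher and 48 lower between the wild types and 32 and 46 between the embryos with mutations. Leaving out single libraries gave 23 to 40 higher and 2 to 13 lower between the wild types, with the extremes 23 and 13 from the scaled fit, and 37 to 43 higher and 2 lower between the embryos with mutations. Shares of all genes called are given only for TPM, median-of-ratios scaling and the 8 fits together. Stage counts under other alternatives, replicate block and left-out libraries included, are therefore not read as particular to Rab genes.

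After median-of-ratios scaling the sums over Disp1_CS_INDEL, Disp1_WT, Myo10_m1J and Myo10_WT were 1701, 1700, 1516 and 1486 for all members, 272, 271, 251 and 248 for early endosome, 295, 290, 250 and 251 for recycling, 243, 248, 201 and 204 for late endosome and lysosome, 560, 560, 508 and 492 for ER and Golgi, 191, 189, 203 and 191 for secretory, 87.0, 91.1, 70.0 and 68.8 for cilium and Hedgehog, and 52.6, 51.8, 32.9 and 32.1 for other members.

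Stage log2 differences of named members that turned negative, and were called in TPM or under the alternative, are given for median-of-ratios scaling, then without structural, haemoglobin and mitochondrial genes, then for protein-coding genes only. Between the wild types they were -0.22, -0.09 and -0.42 for Rab11a, -0.24, -0.11 and -0.43 for Rab10, -0.22, -0.10 and -0.42 for Rab24, -0.30, -0.17 and -0.49 for Rab5a, -0.24, -0.11 and -0.43 for Rab9, and -0.46, -0.39 and -0.66 for Rab27a, which stood at 0.04 in TPM, not called, and was called lower in all 3. The first and last alone turned Rab2a (-0.10 and -0.30) and Rab4a (-0.08 and -0.27), and the last alone Rab35 (-0.10), Rab5b (-0.07) and Rab31 (-0.07). Between the embryos with mutations they were -0.24, -0.02 and -0.36 for Rab2a, -0.26, -0.07 and -0.38 for Rab38, -0.27, -0.05 and -0.39 for Rab11a, -0.28, -0.06 and -0.40 for Rab10, -0.26, -0.05 and -0.38 for Rab24, -0.37, -0.16 and -0.49 for Rab5a, and -0.43, -0.21 and -0.55 for Rab9. There the first and last turned Rab6b (-0.05 and -0.16), and the last alone Rab5b (-0.0021) and Rab31 (-0.07), while Rab27a (0.23 in TPM, not called) was called lower under the first and last (-0.39 and -0.53). Rab6b between the wild types was called in none of these, at 0.41 in TPM and -0.16, -0.06 and -0.35.

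Protein-coding genes only, the scaled fit without Disp1_WT replicate 3 and the fit without that embryo and Disp1_CS_INDEL replicate 1 were chosen after seeing the data. With the replicate number as a block, 0 members were called in either genotype comparison, and 39 higher and 3 lower between the wild types and 43 and 2 between the embryos with mutations. Same-numbered embryos deviated together with correlations between -0.287 and 0.463, so the numbers were not taken to pair embryos.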
